A study of Hordeum vulgare with 12 samples.

Results

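In the shoot base of barley (Hordeum vulgare), 104 strongly expressed genes were lower in both of 2 leaf mutants than in their wild types. These genes were chosen by their measured values from 22437 tested genes and 81687 gene IDs. A member had a mean of at least 100 CPM (counts scaled to a common library total) over 12 RNA-seq libraries, its highest value in the mutant blf13 lay below its lowest in the cultivar Bonus, its highest in the mutant nal1 lay below its lowest in the cultivar Sebastian, and the ratio of mutant to wild-type means was at most 0.87 in both cases. The direction and size in the mutants are therefore a description and were not tested. The genotypes were blf13, which stands in the Bonus background, Bonus itself, nal1, which stands in the Sebastian background, and Sebastian itself. Each had 3 biological replicates, each a pool of 6 plants aged 7 days, harvested as the basal centimetre of the shoot without leaf 1. The title of the series links wider leaves to blf13, a gain-of-function allele of the barley gene orthologous to NARROW LEAF1 of rice. The labels do not give the nature of the nal1 allele, and any other genetic difference between a mutant line and its cultivar is part of each contrast.

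NARROW LEAF1 of rice encodes a plant protein with a trypsin-like protease domain, and rice plants without its function have narrow leaves with fewer veins. It is known from rice for effects on cell division, vascular patterning and auxin transport. The base of a grass shoot holds the apex and the dividing and elongating bases of young leaves. What any of the 104 genes encodes is not known here, since the files and the reference table pair no names with these IDs, and none is assigned a role.

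Counts in genes ranged from 14831979 to 62995658 per library, with a median of 27400641. A member had at least 1296 counts in every library. Unmapped reads made up 10.3% to 17.8% of a library in 11 libraries and 29.8% in blf13 replicate 2. CPM is a share of a library and is not corrected for gene length, so levels are compared between libraries and not between genes. In pooled tissue, fewer cells of a type and less RNA per cell cannot be told apart.

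Together, the members took a smaller share of the counts in every mutant library than in every library of its own wild type. On the scale used by the rule, the choice of members fixes this, since the same holds for each member. On the TMM scale, which adjusts each library so that most genes do not differ, the share was 6.63%, 7.20% and 7.31% in blf13 replicates 1, 2 and 3. It was 8.35%, 9.17% and 8.15% in the 3 Bonus libraries. In nal1 it was 6.60%, 6.34% and 6.58%, and in Sebastian 7.29%, 8.02% and 7.91%. The blf13 and Sebastian libraries met at the edge, with the highest blf13 library above the lowest Sebastian library. Means were 7.045% ± 0.363 in blf13, 8.56% ± 0.545 in Bonus, 6.51% ± 0.148 in nal1 and 7.74% ± 0.394 in Sebastian (SD, n = 3 each). The mutant mean was 82.3% of wild type in blf13 and 84.1% in nal1. As a plain share of counts without TMM, the mutant means were 88.4% and 87.4% of wild type. The libraries of mutant and wild type did not overlap there either, but they are the libraries used to choose the members.

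**Figure D1:**
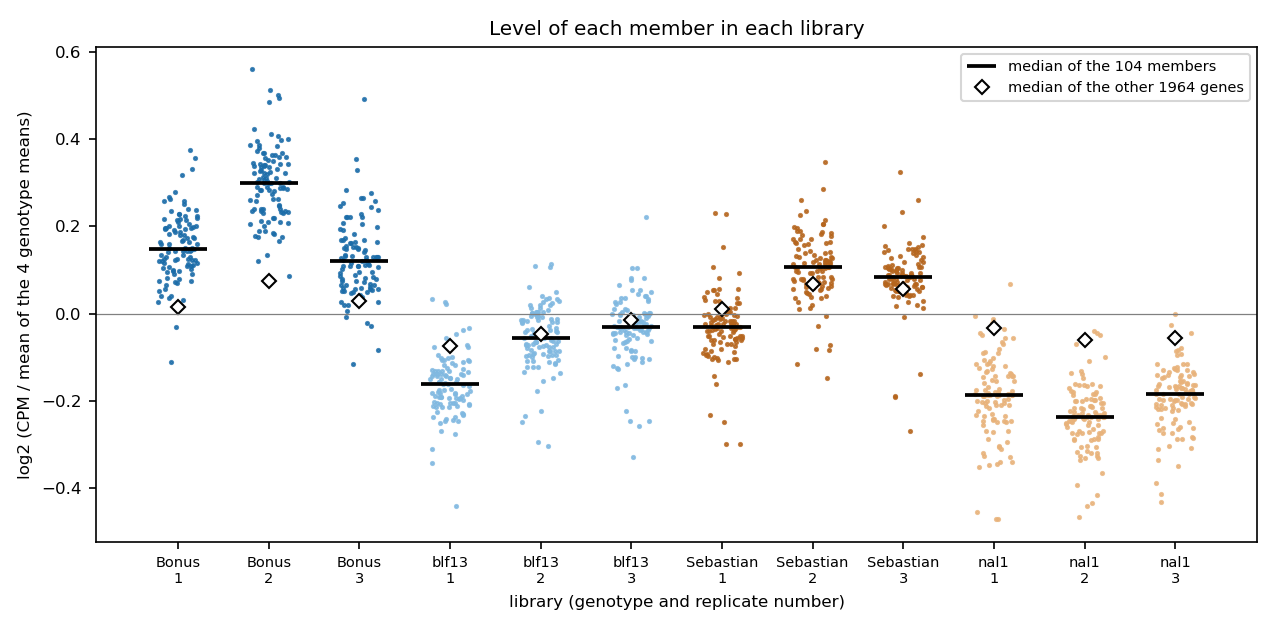
Level of each of the 104 members (points) in each of the 12 libraries, as log2 of CPM over the mean of the 4 genotype means; black lines are medians of the members and diamonds medians of the other 1964 genes of at least 100 CPM. Member medians run from 0.12 to 0.30 in Bonus, from −0.16 to −0.03 in blf13, from −0.03 to 0.11 in Sebastian and from −0.24 to −0.18 in nal1.

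The ratio of means had a median of 0.831 in blf13 (range 0.707 to 0.869) and 0.843 in nal1 (range 0.744 to 0.8696). The members' median log2 fold change was −0.27 against Bonus and −0.25 against Sebastian. Over all 2068 tested genes of at least 100 CPM both medians were −0.10, and over all tested genes they were −0.01 and 0.01. Abundant genes in general were thus lower in both mutants on this scale: 38.3% of the 2068 had no overlap and lower values in blf13, 46.7% in nal1 and 21.8% in both, which is 450 genes, before the ratio limit left 104. Over all tested genes, 13.1% were lower without overlap in blf13 and 17.7% in nal1. Of the members, 60 passed the edgeR test as lower in blf13, where 1.98% of all tested genes and 8.32% of the abundant ones did. For nal1 the number was 84, where 5.42% and 20.5% did. Nothing is read from these counts, as the rule used the same contrasts. These tests had no replicate block. With replicate numbers as a block within each cultivar the 60 became 31, and same-numbered libraries of blf13 and Bonus deviated together. The 60 was also 10 and 14 without blf13 replicate 1 or 2, and 25, 13 and 92 without Bonus replicate 1, 2 or 3. The 84 was 24 and 29 without nal1 replicate 2 or 3, and 19 without either Sebastian replicate 2 or 3.

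The limits of the rule cut through a continuous range. The largest ratio inside was 0.86955 and the smallest outside 0.87008, and 33 further genes that met every other condition lay within 0.01 above the limit. The lowest mean inside was 101.6 CPM, and the highest among genes kept out by their mean alone was 98.2 CPM. The narrowest gap between groups inside was 0.130% of the wild-type mean, and the nearest gene outside overlapped by 0.854%. The same limits applied in other directions gave 44 genes with lower blf13 but higher nal1 values, 4 with the opposite pattern, and 3 that were higher in both.

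**Figure D2:**
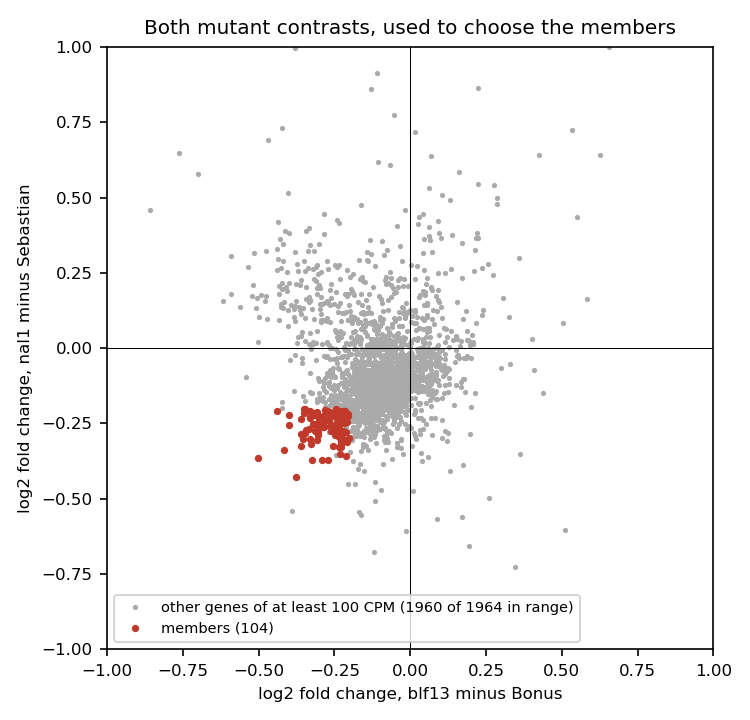
Log2 fold change in blf13 (x axis) and nal1 (y axis), each against its wild type, for genes of at least 100 CPM; red points are the 104 members and grey points are 1960 of the 1964 others, 4 of which lie beyond the axes. The members form the lower left edge of a cloud whose median is −0.10 on both axes.

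The deepest combined difference was that of HORVU.MOREX.r3.7HG0739400. Its level was 139, 153 and 142 CPM in blf13 and 193, 221 and 199 CPM in Bonus. In nal1 it was 136, 150 and 138 CPM, and in Sebastian 166, 194 and 186 CPM. Both mutants stood at about the same level, at 70.7% of Bonus and 77.5% of Sebastian, with log2 fold changes of −0.50 (SE 0.07) and −0.37 (SE 0.07). For HORVU.MOREX.r3.2HG0146990, the next deepest, values were 366, 410 and 428 CPM in blf13, 513, 561 and 487 CPM in Bonus, 357, 332 and 360 CPM in nal1, and 435, 494 and 480 CPM in Sebastian. This gene was at 77.1% of wild type in blf13 and 74.4% in nal1, with log2 fold changes of −0.38 (SE 0.07) and −0.43 (SE 0.07). Both genes also met the rule without any scaling, with cyclic loess scaling and without each library in turn. Being picked as the deepest favours this. Of the 5 genes that met the rule with loess, 4 had ratios of at most 0.8 in both mutants on the reported scale.

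The members with the highest mean CPM differed by less than those above, which were picked as the deepest. HORVU.MOREX.r3.6HG0592050 had 3668, 3950 and 3812 CPM in blf13 against 4568, 4889 and 4081 CPM in Bonus, and 3919, 3704 and 3775 CPM in nal1 against 4253, 4644 and 4459 CPM in Sebastian. Its mutant means were 84.4% and 85.3% of wild type, and the ratio of Sebastian to Bonus was 0.987. HORVU.MOREX.r3.1HG0022710 had 2949, 3240 and 3267 CPM in blf13 against 3847, 4247 and 3953 CPM in Bonus, and 3101, 2941 and 3058 CPM in nal1 against 3303, 3514 and 3649 CPM in Sebastian. It was at 78.5% of wild type in blf13 and, just inside the limit, at 87.0% in nal1. The medians of the ratio over all members were 0.831 in blf13 and 0.843 in nal1. With cyclic loess, which removes any trend of the fold change with level, the log2 fold changes of HORVU.MOREX.r3.6HG0592050 were −0.04 in blf13 and −0.05 in nal1, in place of −0.24 and −0.23. Those of HORVU.MOREX.r3.1HG0022710 were −0.15 and −0.03, in place of −0.35 and −0.20.

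Among members, 65 had the lower ratio in blf13 and 39 in nal1, and the quotient of both ratios ran from 0.851 to 1.11 with a median of 0.984. At the blf13 end stood HORVU.MOREX.r3.1HG0016790, with 192, 191 and 186 CPM in blf13 against 235, 313 and 223 CPM in Bonus, and 209.6, 198.7 and 209.8 CPM in nal1 against 213, 254 and 246 CPM in Sebastian. Bonus replicate 2 decided the size of this difference: the log2 fold change in blf13 was −0.44 (SE 0.10) with it and −0.27 without it. At the nal1 end stood HORVU.MOREX.r3.1HG0095400, with 153, 148 and 143 CPM in nal1 against 181, 188 and 199.6 CPM in Sebastian, and 159, 177 and 162 CPM in blf13 against 187.4, 201 and 187.2 CPM in Bonus. It was at 78.1% of Sebastian in nal1 and at 86.4% of Bonus in blf13. No difference between the mutant effects was tested, since both effects entered the choice.

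**Figure D3:**
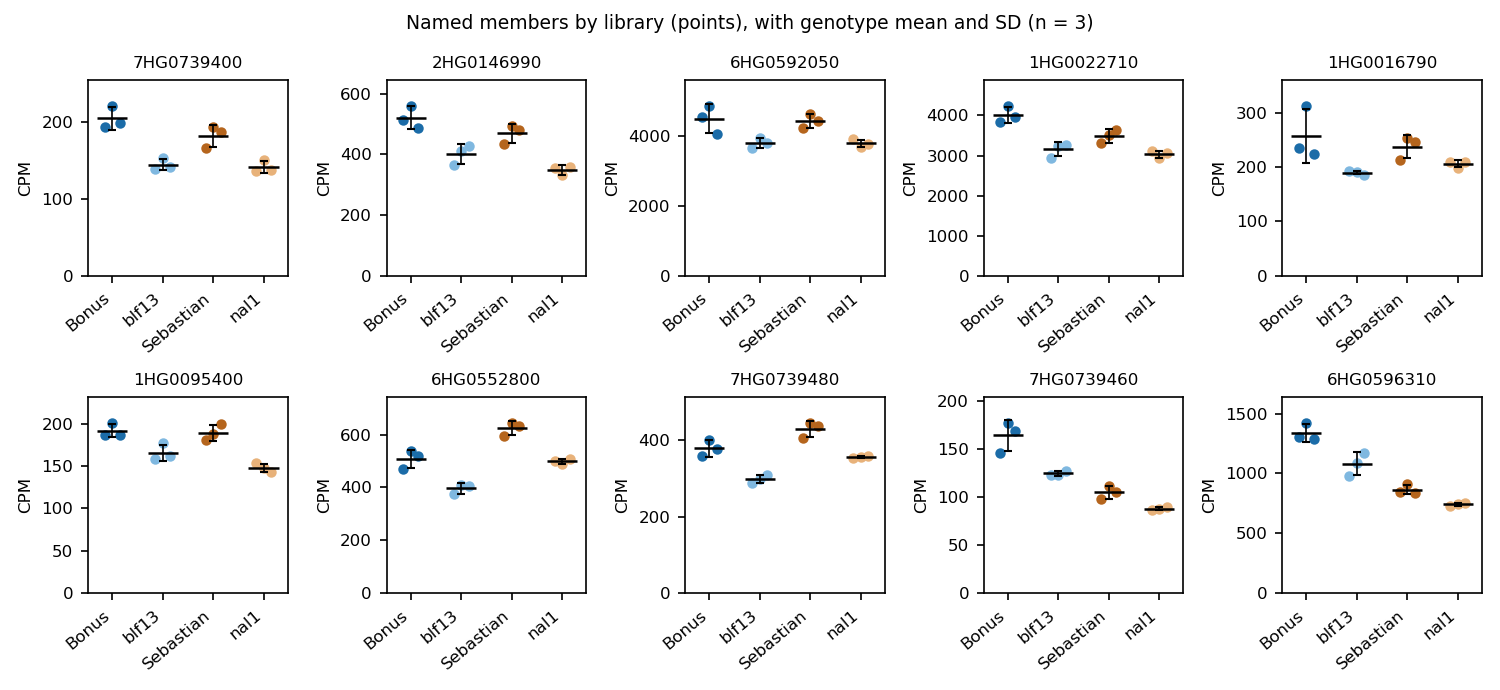
CPM of the 10 members named by rule, 1 panel each, for the 4 genotypes; points are libraries, horizontal lines means and bars SD (n = 3), and each axis starts at 0. In each panel the mutant points lie below those of the mutant's own wild type, while the order of Bonus and Sebastian varies.

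How many genes met the rule depended on how libraries were scaled. TMM factors themselves separated the groups, at 1.01 to 1.05 in the mutant libraries and 0.935 to 0.998 in the wild types, without overlap. With the size factors of DESeq2 (RLE) 93 genes met the rule, all of them members. Without scaling beyond the total 15 did, and with cyclic loess 5 did, again all members. Without scaling, all tested genes had median log2 fold changes of 0.09 and 0.07 in blf13 and nal1. The 2068 abundant genes had 0.002 and −0.04 there, and the members −0.16 and −0.19. With loess, the medians over the 2068 abundant genes were 0.00 and −0.01, and the members stood at −0.14 and −0.14. The members were thus below other abundant genes under all 4 scalings, a direction that the choice of members fixes. The part of composition or level trend in their differences was not tested.

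Single libraries also moved the count. It was 61 without Bonus replicate 2, 74 without blf13 replicate 1, 74 without Sebastian replicate 2, and 144 without Bonus replicate 3 or Sebastian replicate 1. Of the 104 members, 30 met the rule whichever single library was left out, and 15 of these met it without scaling as well. The rule was also applied to 2 replicate numbers of each genotype at a time, and the remaining number was read. Same-numbered mutant and wild-type libraries were set against each other there. The left-out libraries had entered the choice of the 104 members, and the rule was set with their values known. Of the genes chosen without number 1, 2 or 3, 67 of 90, 38 of 44 and 84 of 149 were members. The left-out values are therefore a description and not an independent test. Without number 1, 90 genes were chosen, and 88 (97.8%) were lower in both mutants in the left-out libraries, as were 49.7% of the abundant genes. Without number 2 this held for 44 of 44 genes, against 65.1% of the abundant genes, and without number 3 for 123 of 149 genes (82.6%), against 54.4%. Fewer kept the size, with 16, 34 and 15 genes at or under a ratio of 0.87 in both left-out pairs. In the same order of numbers, the median left-out ratio to Bonus was 0.796, 0.785 and 0.933, and that to Sebastian was 0.915, 0.785 and 0.836. The abundant genes had 0.927, 0.907 and 0.963 for blf13, with 0.970, 0.910 and 0.914 for nal1. They were not matched to the chosen genes by level, and the median fold change in both mutants was lower at higher levels. Deviations of same-numbered nal1 and Sebastian libraries correlated by only −0.0997, −0.0408 and 0.110. The part of scaling and level in the left-out values was not tested.

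**Figure D4:**
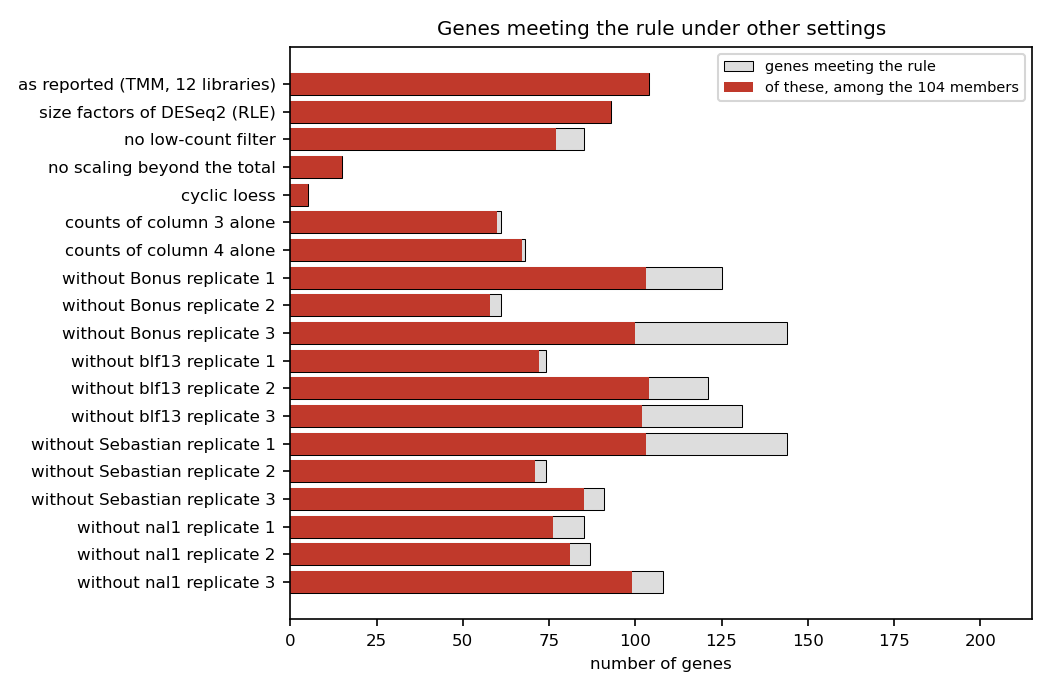
Number of genes that meet the rule (full bar) and how many of them are among the 104 members (red), for the reported setting, other scalings and filters, the counts of each strand column, and each library left out. Bars run from 5 with cyclic loess to 144 without Bonus replicate 3 or Sebastian replicate 1.

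The rule set no limit on the difference between the wild types, but it used the same Bonus and Sebastian values. Counts and p-values between the backgrounds are therefore not independent of the choice of members. Of the 104, 95 (91.3%) had a lower mean log2 level in Sebastian than in Bonus, as did 49.1% of the other 1964 abundant genes and 50.6% of all tested genes. The members' median log2 fold change was −0.14, where the other abundant genes had 0.00. In the edgeR test over all genes, 23 members (22.1%) were lower in Sebastian and 2 higher. Of all tested genes 9.12% were lower and 8.44% higher, and of the abundant genes 9.82% and 8.32%. Without overlap between both groups of 3, 43 members were lower and 2 higher, against 17.5% and 15.9% of all tested genes and 18.2% and 17.7% of the abundant genes. The 23 became 11 without Bonus replicate 2, 10 without Sebastian replicate 1, and 44 with cyclic loess. With loess the abundant genes lower in Sebastian also rose, from 203 to 274 of 2068. The 2 became 1 without Bonus replicate 1 or 3 or Sebastian replicate 2 or 3. Among genes of at least 1000 CPM, 8 of 28 members and 10 of 81 other genes were lower in Sebastian, and the median log2 fold changes were −0.15 and −0.10, in that order.

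In nal1 against blf13, a comparison that shares no library with that of the wild types, the members' median log2 fold change was −0.12, and that of the other abundant genes −0.01. By the edgeR test 33 members (31.7%) were lower in nal1 and 2 higher, against 16.8% and 20.5% of all tested genes and 19.1% and 19.6% of the abundant genes. Without overlap, 50 members were lower and 5 higher, against 24% and 25.4% of all tested genes and 30.1% and 25.3% of the abundant genes. The 33 became 15 and 17 without blf13 replicate 2 or 3, 14 without nal1 replicate 2, and 52 without scaling. Without scaling the abundant genes lower in nal1 also rose, from 396 to 534 of 2068. No like counts are given for the settings with a library left out. Both contrasts are tied by the rule, which holds the mutant effects within narrow bounds. In 17 members (16.3%) the lower value passed in both contrasts, 2 members (1.92%) were higher in both, and 63 (60.6%) passed in neither. The other abundant genes had 6.16%, 5.45% and 55%, and the 1187 of them with both mutant means below wild type had 7.67%, 3.62% and 65.5%. By mean CPM, Bonus was the highest genotype in 95 members and nal1 the lowest in 93, and the order Bonus, Sebastian, blf13, nal1 was found in 85. The rule fixes part of this, since it puts each mutant below its wild type in every member. Among the 1187 other abundant genes with both mutant means below wild type, Bonus was highest in 57.8%, nal1 lowest in 65%, and that order was found in 29.9%. Neighbours in the order often did not differ beyond their spread. The ranges of Bonus and Sebastian overlapped in 59 members (56.7%), those of Sebastian and blf13 in 57 (54.8%) and those of blf13 and nal1 in 49 (47.1%). Among the same 1187 genes these shares were 65%, 50.7% and 49.9%.

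**Figure D5:**
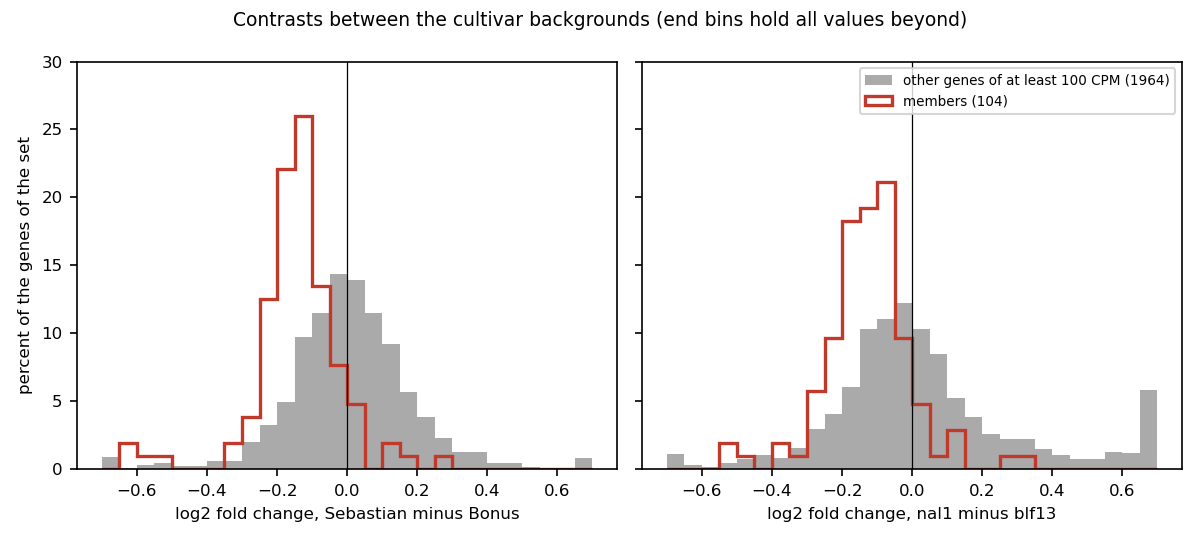
Share of the 104 members (red line) and of the other 1964 genes of at least 100 CPM (grey) by log2 fold change, in steps of 0.05, for Sebastian minus Bonus (left) and nal1 minus blf13 (right); end bins hold all values beyond. The members centre at −0.14 and −0.12, the other genes at 0.00 and −0.01.

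The members with the largest fall from Bonus to Sebastian were named for that fall, among called members without overlap. Their lack of overlap and adjusted p between the wild types therefore restate the choice. HORVU.MOREX.r3.7HG0739460 had 146, 177 and 169 CPM in Bonus and 98.0, 111 and 106 CPM in Sebastian, and no libraries overlapped. It fell by 0.65 on the log2 scale (SE 0.07, edgeR adjusted p = 8.74e-06), and by 0.50 (SE 0.07, edgeR adjusted p = 6.53e-05) from blf13, at 123.3, 123.4 and 127 CPM, to nal1, at 86.9, 87.3 and 89.4 CPM. HORVU.MOREX.r3.6HG0596310 had 1304, 1424 and 1286 CPM in Bonus and 847, 909 and 835 CPM in Sebastian, again without overlap. It changed by −0.63 on the log2 scale (SE 0.07, edgeR adjusted p = 7.67e-06), and between blf13, at 980.4, 1088 and 1172 CPM, and nal1, at 726, 742 and 756 CPM, it was −0.54 (SE 0.07, edgeR adjusted p = 2.31e-05). In both genes nal1 was lowest and Bonus highest, and Sebastian lay below blf13.

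The only members called higher in Sebastian were the next pair, named for that call, so their lack of overlap and adjusted p there restate the choice too. HORVU.MOREX.r3.6HG0552800 had 594, 645 and 634 CPM in Sebastian and 470, 538 and 517 CPM in Bonus, which do not overlap. The log2 difference was 0.30 (SE 0.06, edgeR adjusted p = 0.00245). It was also higher in nal1, at 499, 489.8 and 507 CPM, than in blf13, at 374, 411 and 404 CPM, by 0.33 (SE 0.06, edgeR adjusted p = 0.000541). HORVU.MOREX.r3.7HG0739480 had 406, 445 and 437 CPM in Sebastian and 358, 401 and 376 CPM in Bonus, again without overlap. The log2 difference was 0.18 (SE 0.05, edgeR adjusted p = 0.0292). Its values in nal1 were 352, 356 and 359 CPM against 288, 298 and 308 CPM in blf13, higher by 0.25 (SE 0.05, edgeR adjusted p = 0.00207). Its wild-type call was lost without Bonus replicate 1 or 3 or Sebastian replicate 2 or 3 (adjusted p up to 0.124 by edgeR), and with the 6 wild-type libraries alone.

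Within a genotype, members went up and down together from library to library. For each pair of genes, the deviations of log2 CPM from the genotype means were correlated over the 12 libraries, as a description. The median r was 0.739 over 5356 pairs of members, with quartiles at 0.586 and 0.842, against 0.141 over pairs of the other abundant genes, with quartiles at −0.205 and 0.463. Among genes of at least 1000 CPM it was 0.833 for 28 members and 0.418 for 81 other genes. Without scaling the medians were 0.540 and 0.0049, and with loess 0.508 and −0.011. All pairs share the same libraries and scale factors. The non-overlap condition also limits how far a member can deviate in any library.

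The same libraries stood out for most members. Bonus replicate 2 was the highest Bonus library in 97 of 104 members, Sebastian replicate 1 the lowest Sebastian library in 101, and blf13 replicate 1 the lowest blf13 library in 96. In nal1 the pattern was weaker, with replicate 2 lowest in 68. The median member deviated by 0.11 (log2) in Bonus replicate 2, by −0.08 in Sebastian replicate 1 and by −0.08 in blf13 replicate 1, and the median other abundant gene by 0.04, −0.04 and −0.03. The TMM factor of Bonus replicate 2, with the highest Bonus values, was 0.935, the lowest of the 12, and that of blf13 replicate 1, with the lowest blf13 values, was 1.05, the highest of the 12. Without the scale factors the median r was 0.540, as given above. The library with the most unmapped reads, blf13 replicate 2, was lowest in 2 members and highest in 39. Replicates of a member had a median coefficient of variation of 7.08% in Bonus, 5.34% in blf13, 5.43% in Sebastian and 2.99% in nal1, where the other abundant genes had 5.82%, 4.11%, 3.86% and 4.08%.

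Members were a larger share of the genes with more counts. They were 23 of 1218 tested genes of 100 to 200 CPM (1.89%), 36 of 579 of 200 to 500 CPM (6.22%), 17 of 162 of 500 to 1000 CPM (10.5%), 21 of 79 of 1000 to 2000 CPM (26.6%) and 7 of 30 at 2000 CPM and over (23.3%). Over all tested genes the median log2 fold change moved with level in both mutants. It was 0.06 in blf13 and 0.10 in nal1 at 1 to 10 CPM, −0.09 and −0.09 at 100 to 1000 CPM, and −0.21 and −0.18 at 1000 CPM and over. At 1000 CPM and over, the 28 members had −0.27 and −0.24 and the other 81 genes −0.18 and −0.15. The other genes of that level were thus lower in both mutants too. That they differed by less at the median largely follows from the choice, since they failed the ratio limit or the non-overlap condition. The part of level in the members' difference was not tested.

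By the chromosome in the gene ID, members lay on all 7 barley chromosomes. Chromosome 7H held 21 members (20.2%, against 13.4% of the abundant genes), 1H and 3H held 17 each, 4H 16, 6H 14 and 2H 11. Of the abundant genes, 14.6% lay on 1H, 14.5% on 3H, 13.2% on 4H, 12.2% on 6H and 15.6% on 2H. Chromosome 5H held 8 members (7.69%), against 16.5% of the abundant genes. In order of ID, 16 members (15.4%) had another member within 20 IDs, in 7 groups. No like share is given for the other abundant genes, so nothing is read from this count.

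The largest group was a run of 4 members on 7H that spans 11 IDs and takes in each of the 4 tested genes there. Besides HORVU.MOREX.r3.7HG0739400, HORVU.MOREX.r3.7HG0739460 and HORVU.MOREX.r3.7HG0739480, described above, it holds HORVU.MOREX.r3.7HG0739380. That gene had 206, 229 and 223 CPM in blf13 against 264, 324 and 290 CPM in Bonus, and 205, 206 and 199 CPM in nal1 against 242, 274 and 257 CPM in Sebastian. Ratios in the run were 0.707 to 0.788 in blf13 and 0.775 to 0.837 in nal1, against medians of 0.831 and 0.843 over all members. Between the wild types the run did not move as one, with HORVU.MOREX.r3.7HG0739460 lower in Sebastian, HORVU.MOREX.r3.7HG0739480 higher, and HORVU.MOREX.r3.7HG0739380 and HORVU.MOREX.r3.7HG0739400 short of the edgeR threshold (adjusted p = 0.0993 and 0.128). Whether these neighbours have similar sequences is not known here, and reads shared between near-identical genes were counted for none. The other 6 groups were pairs that span 2 to 16 IDs. One pair, on 5H, encloses another abundant gene, which had ratios of 1.05 in blf13 and 0.965 in nal1.

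The share of a member's counts in the sense column was 46.1% to 57.0%, with a median of 50.3%, and the kit does not mark strand. When the rule was applied to the sense column alone, 61 genes met it, 60 of them members, and with the other column alone 68 did, 67 of them members. These columns hold different reads of the same libraries. In 8 members (7.69%) the sum of both columns exceeded the count without strand by over 1%, which marks overlap with a gene on the other strand. This was so for 1.43% of the other abundant genes, and the excess in a member was at most 3.42%. Reads over both genes were left out of the counts without strand, on which the members rest. In a single column they can stand with the member.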

How the data were processed

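RNA-seq read counts per gene were analysed for 12 libraries, 3 biological replicates of each of the 4 genotypes. The deposited files hold raw counts per gene with the summary lines that STAR writes. The submitters' processing notes name STAR 2.7.3a. Reads with several positions, or lying over more than 1 gene, stand in those lines and not with any gene, which leaves near-identical copies uncertain. Genome build and read trimming: not given in the sources used here. Column 2 (both strands) was used, since the NEBNext Ultra RNA kit named in the labels' protocols does not mark strand. The 4 summary lines per file, with 15.7% to 37.9% of the reads of a library, stayed out of library sizes and tests. No column of another sample was present.

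Genes passing edgeR's filterByExpr were scaled by TMM (trimmed mean of M-values, which sets each library's size so that most genes do not differ) and expressed per 1000000 counts (CPM). Tests used edgeR 4.0.16 under R 4.3.3 (quasi-likelihood F test, 1 coefficient per genotype over all 12 libraries, Benjamini-Hochberg adjustment over all tested genes, threshold 0.05). The fit was also run on simulated counts, with an outcome not reported here. Alternatives used RLE size factors, no scaling, cyclic loess (limma 3.58.1), DESeq2 1.42.0, no filter, a replicate block, the 6 compared libraries alone, a test against a 1.5-fold change and each library left out. The members, and every list and test, were chosen with earlier results of these data known.

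The labels do not say that a replicate number marks a shared batch. Over genes, deviations from genotype means of blf13 and Bonus correlated by 0.219 (number 1), 0.315 (number 2) and 0.213 (number 3). Those of nal1 and Sebastian correlated by −0.0997, −0.0408 and 0.110. Libraries of blf13 and Bonus may thus be paired, but the reported fold changes, SE and adjusted p come from the edgeR fit without a block. The block was run as an alternative only. Counts with a replicate block stand beside the results they move. Named genes are the 2 members with the lowest geometric mean of both mutant to wild-type ratios, the 2 with the highest mean CPM, the 2 whose ratios differ most between the mutants in either direction, and the 2 with the largest rise and the 2 with the largest fall from Bonus to Sebastian among called members whose groups do not overlap. HORVU.MOREX.r3.7HG0739380 was added after its values were seen. Of 81687 gene IDs, 0 matched the reference table of barley genes, so no gene name, product, coordinate or sequence is given, and the tissue was not checked against marker genes.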

Additional observations from a re-analysis of the deposited data

How the results depend on the processing

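The number of genes meeting the rule was 15 without scaling, 5 with cyclic loess, 61 and 68 with either strand column alone, 44 without replicate 2 of all genotypes, 5 with a ratio of at most 0.8, 224 with 0.9 and 450 with any ratio below 1. With 1 library left out it ran from 61 to 144. The 60 members called lower in blf13 were 25 without scaling, 17 with loess, 98 with DESeq2, 31 with a replicate block within each cultivar, 3 in the 6 libraries alone, 2 when replicate 2 of both blf13 and Bonus was left out (the replicate 2 pair), and 10 to 92 with 1 library left out. The 84 called lower in nal1 were 33 with loess and 19 to 103 with 1 library left out. Lower in Sebastian than Bonus were 44 with loess, 8 without the replicate 2 pair, 28 with a replicate block over all libraries and 10 to 33 with 1 library left out. Higher in Sebastian were 1 in the 6 libraries alone and 1 to 3 with 1 left out. Lower in nal1 than blf13 were 52 without scaling and 14 to 41 with 1 left out. Calls among the 2068 abundant genes moved with the scaling too. Lower in blf13 were 172 as reported, 55 without scaling and 38 with loess. Lower in nal1 than Sebastian were 423 as reported and 127 with loess. Lower in Sebastian than Bonus were 203 as reported and 274 with loess. Lower in nal1 than blf13 were 396 as reported and 534 without scaling. No like counts are given for the other settings. Against a fold of 1.5, edgeR's glmTreat called 0 members in any of these contrasts, also 0 at an unadjusted p under 0.05. The edgeR test against no change, unadjusted, gave 104 members lower in blf13 and 103 in nal1, counts that the choice of members nearly fixes, where 12.9% and 13.3% of all tested genes were lower. It gave 55 lower and 2 higher in Sebastian, against 16% and 14.4% of all tested genes, and 44 lower and 2 higher in nal1 against blf13, against 21.5% and 24.3%.

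The members' median log2 fold change was −0.16 without scaling and −0.14 with loess in blf13 (−0.27 as reported). In nal1 it was −0.14 with loess (−0.25 as reported). The median of each contrast kept its sign in every setting for which a median was computed. This leaves out DESeq2, glmTreat and, between the backgrounds, the block within each cultivar. For both mutants against their wild types, the choice of members nearly fixes the sign. The replicate block changed no other count by over 1.5 times. Of the named genes, 4 had log2 differences between backgrounds near 0 that changed sign, none of them called. From Bonus to Sebastian, HORVU.MOREX.r3.6HG0592050 had 0.0061 without scaling, 0.0053 with loess, 0.041 without Bonus replicate 2, 0.013 without Sebastian replicate 1 and 0.042 without the replicate 2 pair, and −0.087 to 0.041 with 1 library left out. HORVU.MOREX.r3.1HG0095400 had 0.0074 without scaling, 0.017 without Bonus replicate 2 or the replicate 2 pair and 0.015 without Sebastian replicate 1 (−0.059 to 0.017 with 1 left out). HORVU.MOREX.r3.1HG0016790 had 0.054 without Bonus replicate 2 and 0.055 without the pair (−0.206 to 0.054 with 1 left out). From blf13 to nal1, HORVU.MOREX.r3.6HG0592050 had 0.021 without blf13 replicate 2 or the replicate 2 pair, 0.015 without nal1 replicate 2 and 0.00071 without nal1 replicate 3 (−0.044 to 0.021 with 1 left out), and HORVU.MOREX.r3.7HG0739400 had 0.0097 without blf13 replicate 2 and 0.0094 without the pair (−0.077 to 0.0097 with 1 left out). The cause of these changes was not tested.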
